A study of Homo sapiens with 8 samples.

Results

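The 6 Iroquois homeobox genes, IRX1 to IRX6, were described in PC9, a cell line from a human lung adenocarcinoma with mutant EGFR, by the genomic length that islands of H3K27me3 and of H3K4me3 covered. The genes were taken by name, with none left out for its signal, though earlier results of these data were known. They made up 6 of the 20098 protein-coding genes annotated on chromosomes 1 to 22 and X of GRCh37. They lie in 2 clusters of 3. The span of the chromosome 5 cluster was chr5:1877527-3601517 (1.72 Mb, with IRX4, IRX2 and IRX1 in this order), and the span of the chromosome 16 cluster was chr16:54317216-55364668 (1.05 Mb, with IRX3, IRX5 and IRX6). No other protein-coding gene lay in either span. Each gene was measured over its body plus 2 kb upstream of its start, here called the gene window.

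The study examined how an EZH2 inhibitor changes the distribution of H3K27me3 when D. melanogaster chromatin is added to each ChIP reaction as a reference. PC9 cells had been treated for 5 days with DMSO, the vehicle, or with 1 μM GSK126, a small molecule inhibitor of EZH2. All libraries came from this cell line, and the labels name no transgene or other agent. ChIP-seq gave 8 libraries, 2 for each mark and treatment, numbered as replicates 1 and 2. An island is a stretch in which windows of 200 bp hold more sequencing tags than a random background, as called by the SICER algorithm in a single library. The islands were given in 14 lists. In the spike-in lists, GSK126 tags had been removed at random by a factor from the D. melanogaster tags, and in the standard lists the larger library of a replicate had been thinned to the smaller. The DMSO libraries of H3K4me3 came with 1 list each, which served both comparisons.

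IRX genes encode homeodomain transcription factors of the TALE class, which pattern the limb, heart, nervous system and lung during development. EZH2 is the catalytic subunit of Polycomb repressive complex 2, which places methyl groups on lysine 27 of histone H3. H3K27me3 marks repressed developmental genes, often in broad domains, whereas H3K4me3 marks the start regions of genes that are active or poised.

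The depth behind the lists differed, and it bears on every value that follows. Read from the island scores, the mean number of tags per 200-bp window was 1.65 and 2.33 in the H3K27me3 spike-in lists of DMSO replicates 1 and 2, and 0.382 and 0.455 with GSK126. The thinned GSK126 lists therefore held 23.1% and 19.6% of the tags per window of their DMSO lists. A region that falls under the threshold of its list gives no island, so in the spike-in lists a lower modification level and the lower tag number that stands for it cannot be told apart. In the standard lists both treatments of a replicate had the same density, 1.36 tags per window in replicate 1 and 1.55 in replicate 2. The H3K4me3 libraries of replicate 2 were shallow, at 0.302 tags per window with DMSO against 1.77 in replicate 1. As a check of the label, H3K4me3 islands lay within 1 kb of the starts of the epithelial genes KRT18 and CDH1 and of EGFR in 6 of 6 lists, at EPCAM in 3 of 6, and at the leukocyte gene PTPRC in 0 of 6.

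With 2 replicates, an exact sign-flip permutation test over the 2 pairs cannot give a two-sided p-value below 0.5. No p-value is therefore given for a comparison of treatments, and differences are given within each replicate and as the mean ± SD over both. The replicates are biological ones according to the study's description.

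The clusters carried opposite marks in DMSO-treated cells. H3K27me3 islands lay over IRX4, IRX2 and IRX1 in both spike-in lists (27.7% of all genes) and over none of the chromosome 16 genes. H3K4me3 islands lay over IRX3 and IRX5 in both lists (68% of all genes) and over none of the chromosome 5 genes. IRX6 held no island of either mark in any of the 14 lists, a state found for 13.9% of all protein-coding genes. In both DMSO replicates, H3K27me3 islands reached to within 1 kb of the starts of 3 of the 6 genes (17.8% of all genes), H3K4me3 islands did so at 2 of the 6 (59.4% of all genes), and islands of both marks did so at 0 of the 6 (4.87% of all genes).

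The promoter sequence of IRX4 is shown because its start lay in H3K27me3 islands in all 8 lists of this mark. It runs 5′ to 3′ on the strand of the gene, from 250 bases before to 50 bases after the annotated start in GRCh37, and capitals mark each CG dinucleotide, which reads the same on both strands.
IRX4, chr5:1887301-1887600, minus strand: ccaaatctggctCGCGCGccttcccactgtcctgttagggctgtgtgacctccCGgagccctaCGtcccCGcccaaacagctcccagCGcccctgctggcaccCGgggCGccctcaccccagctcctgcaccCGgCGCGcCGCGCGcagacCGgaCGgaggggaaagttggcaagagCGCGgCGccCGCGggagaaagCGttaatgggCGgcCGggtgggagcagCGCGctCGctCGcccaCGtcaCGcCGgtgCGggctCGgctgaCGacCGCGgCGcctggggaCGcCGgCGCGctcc

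The IRX4 promoter held 42 CG dinucleotides, beside a median of 18 over 20098 promoters, and 6.32% of all promoters of this length held at least as many. Its GC content was 74.7% and its ratio of observed to expected CG was 1.01.

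H3K27me3 covered less of IRX2 and IRX1 with GSK126 in both replicates of the spike-in lists, and less of IRX4 in 1 replicate only. Covered length was lower in both replicates for 2 of the 6 genes, beside 24.9% of all 20098 genes, and higher for 0 of the 6, beside 0.114%. Only genes covered in both DMSO lists could be lower in both replicates. Of 5573 such genes 4999 were lower, and of the 3 such IRX genes 2 were. Over 50% of the gene window was covered in both DMSO lists at 2 of the 6 genes, IRX4 and IRX1, beside 11.6% of all genes. Of the 3 IRX genes covered in both DMSO lists, IRX2 and IRX1 lost more than 50% of their covered length in both replicates, which 56.1% of 5573 genes so covered also did. Summed over the 6 gene windows, H3K27me3 covered 47.0% and 56.4% with DMSO and 21.1% and 32.1% with GSK126. The mean difference was −25.1 ± 1.21 percentage points (SD, n = 2), and the groups did not overlap. The mean coverage of all protein-coding genes fell as well, from 13.0% and 13.9% with DMSO to 6.35% and 6.76% with GSK126. A fall was thus not particular to the IRX genes.

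**Figure D1:**
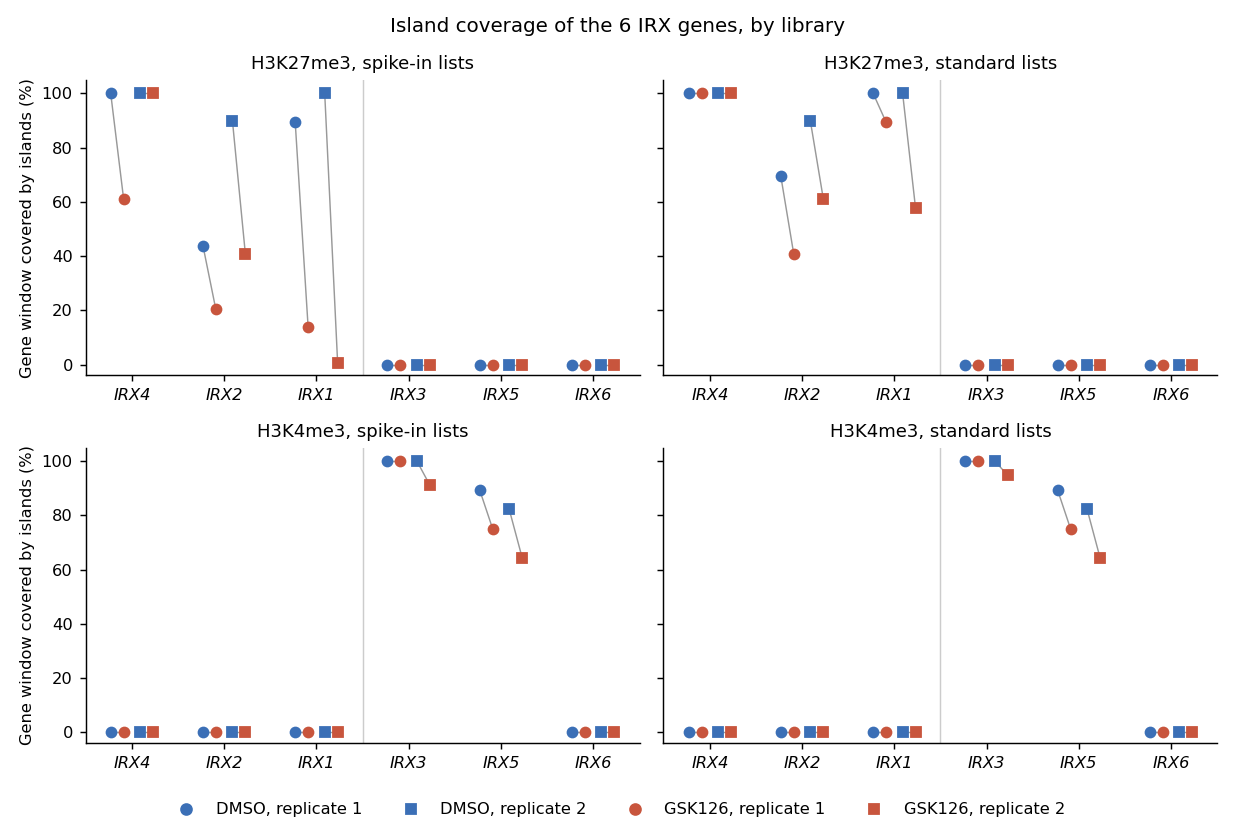
Percent of each gene window (gene body plus 2 kb upstream) covered by islands, for H3K27me3 (top) and H3K4me3 (bottom), in the spike-in lists (left) and the standard lists (right). Each point is 1 library, lines join the DMSO and GSK126 libraries of a replicate, and the vertical line parts the chromosome 5 genes from the chromosome 16 genes. H3K27me3 is seen only over IRX4, IRX2 and IRX1, and H3K4me3 only over IRX3 and IRX5.

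IRX4, which is known for its expression in the ventricles of the heart, lay inside one of the strongest H3K27me3 domains of the genome. In the DMSO spike-in lists its window (chr5:1877527-1889350) was covered at 100% by a single island, chr5:1830601-1954800 in replicate 1 and chr5:1829801-1968600 in replicate 2. These islands were 124.2 and 138.8 kb long and ranked 5 by score among 35901 and 35522 islands. With GSK126, 61.1% and 100% of the IRX4 window remained covered. In replicate 1 the domain was broken into chr5:1830601-1878600 and chr5:1883201-1934600, so that the gap lay inside the gene body, and in replicate 2 a single island of 76.2 kb, chr5:1830201-1906400, remained over the gene. The mean difference, −19.5 ± 27.5 percentage points, was smaller than its SD. All 2001 bp within 1 kb of the IRX4 start were covered in all 8 H3K27me3 lists.

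Island coverage cannot show a lower signal within an island that stays, so the number of tags per 200-bp window was read back from the island scores. Over the islands that touched IRX4, it was 27.4 and 39.6 with DMSO and 11.1 and 18.2 with GSK126 in the spike-in lists. The GSK126 islands thus held 0.405 and 0.459 times the DMSO density, with a mean ratio of 0.432 ± 0.0380. Among 3121 protein-coding genes with islands in all 4 spike-in lists, the median ratio was 0.339 in replicate 1 and 0.306 in replicate 2, and 77.1% and 90.5% of these genes had a lower ratio than IRX4. The GSK126 islands were shorter than the DMSO islands (99.4 against 124.2 kb, and 76.2 against 138.8 kb), so the ratio compares what remained with the whole domain. The ratios for the other genes of the cluster lay at the low end of the same genes. They were 0.169 and 0.167 for IRX1, with 0.384% and 2.88% of genes lower, and 0.128 and 0.118 for IRX2, with 0.0641% and 0.192% lower. At these genes the remaining islands were far shorter than those with DMSO, 5.4 against 64.8 kb and 3.8 against 47.8 kb at IRX1, and 5.0 against 74.6 kb and 4.6 against 163.2 kb at IRX2, so the ratios compare unlike stretches. In the standard lists, at equal tag number, the order turned for IRX4. Density over the IRX4 islands was 22.4 and 26.7 with DMSO and 37.6 and 63.4 with GSK126, which are ratios of 1.68 and 2.38. Reading density from scores was not tested on simulated data for the standard lists. For IRX1 the ratios at equal tag number were 0.894 and 0.806, and for IRX2 they were 0.391 and 0.359, again over shorter islands with GSK126. At IRX2 the DMSO density came mostly from the long domain on the side of IRX4. The island on the upstream side of its start alone held 7.12 and 7.63 tags per window with DMSO. The matching GSK126 islands held 6.09 and 6.37. In replicate 1 the GSK126 island, chr5:2750601-2760200, also ran across the start into the gene body, so these stretches are unlike. In the spike-in lists, the upstream island held 9.99 and 11.2 with DMSO and 2.63 and 2.65 with GSK126.

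**Figure D2:**
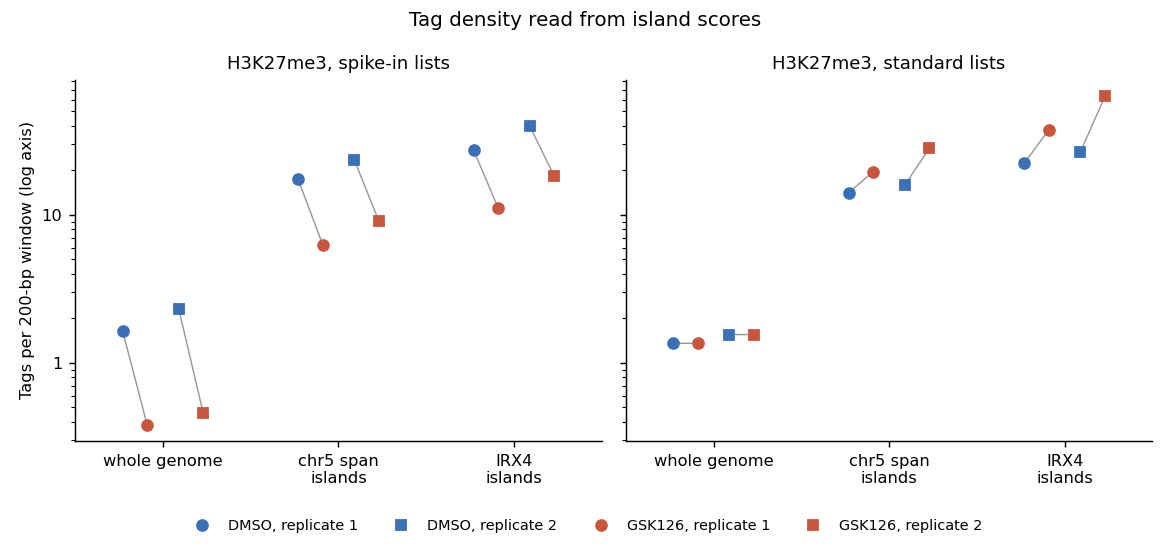
Mean number of H3K27me3 tags per 200-bp window (log axis) over the whole genome, over islands in the chromosome 5 span and over islands that touch IRX4, as read from island scores, in the spike-in lists (left) and the standard lists (right). Each point is 1 library and lines join the libraries of a replicate. GSK126 lies below DMSO at every place in the spike-in lists, from 27.4 to 11.1 and from 39.6 to 18.2 over the IRX4 islands, and above DMSO over both kinds of island in the standard lists.

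IRX1, the third gene of the chromosome 5 cluster, was nearly free of H3K27me3 islands in the spike-in lists of GSK126. Its window (chr5:3593946-3601517) was covered at 89.4% and 100% with DMSO and at 13.9% and 0.726% with GSK126 in the spike-in lists. The mean difference was −87.4 ± 16.8 percentage points, which is larger than the spread of each group. With DMSO, the gene lay in islands chr5:3571801-3595600 and chr5:3596401-3637400 in replicate 1 and chr5:3589601-3637400 in replicate 2. With GSK126, only islands upstream of the gene body touched the window, chr5:3589601-3595000 and chr5:3590201-3594000, which were 5.40 and 3.80 kb long. The distance from the IRX1 start to the nearest H3K27me3 island was 0.346 and 0 kb with DMSO and 0.946 and 1.95 kb with GSK126. This near absence was limited to the spike-in lists, since in the standard lists GSK126 islands covered 89.4% and 57.7% of the IRX1 window.

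IRX2 lay at the edge of a domain and was covered in part. Its window (chr5:2745959-2753791) was covered at 43.8% and 89.8% with DMSO and at 20.3% and 40.7% with GSK126. The difference was negative in both replicates (mean −36.3 ± 18.1 percentage points), but the DMSO replicates differed by more than this, and the 43.8% of DMSO replicate 1 was close to the 40.7% of GSK126 replicate 2. With DMSO, dense islands that came from the side of IRX4 ended in or at the gene, chr5:2679001-2746000 (67.0 kb) in replicate 1 and chr5:2596801-2751000 (154.2 kb) in replicate 2. The islands nearest to the IRX2 start lay upstream of the gene, chr5:2752401-2758000 in DMSO replicate 1 and chr5:2751801-2760800 in DMSO replicate 2, and ranked 7134 by score among 35901 islands and 6252 among 35522. DMSO replicate 1 also held a weak island within the gene, chr5:2749001-2751000, which ranked 34688. With GSK126, neither dense island reached the window, and islands of 5.00 kb in replicate 1 and of 1.60 and 3.00 kb in replicate 2 remained.

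At equal tag number, in the standard lists, the differences over IRX4 and IRX1 were smaller or absent. Islands touched the same 3 of the 6 windows in both DMSO lists (25.4% of all genes) and covered over 50% of each (11% of all genes). IRX4 was covered at 100% in all 4 lists. IRX1 was covered at 100% in both DMSO lists and at 89.4% and 57.7% with GSK126 (mean −26.4 ± 22.4 percentage points). IRX2 was covered at 69.4% and 89.8% with DMSO and at 40.7% and 61.2% with GSK126, which is −28.6 percentage points in each replicate. In replicate 1, however, the GSK126 island at IRX2 covered all 2001 bp within 1 kb of the start, where DMSO islands covered 601. Covered length was again lower in both replicates for 2 of the 6 genes (14.3% of all genes) and higher for 0 of the 6 (1.72% of all genes). Among genes covered in both DMSO lists, which alone could be lower, these were 2 of 3 IRX genes and 2870 of 5101 genes. Of the 3, 0 lost more than 50% of their covered length in both replicates (15.6% of 5101 genes). Over the 6 gene windows together, coverage was 53.0% and 56.4% with DMSO and 46.5% and 44.8% with GSK126 (mean −9.05 ± 3.62 percentage points).

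The H3K27me3 of the chromosome 5 cluster was not limited to its genes but filled most of the span. In the spike-in lists, islands covered 84.7% and 86.9% of the 1.72 Mb with DMSO and 68.1% and 64.8% with GSK126. The groups did not overlap, and the mean difference was −19.3 ± 3.89 percentage points. The whole spike-in lists also shrank, from 275 and 300 Mb with DMSO to 127 and 133 Mb with GSK126. The islands of the span were more numerous and shorter with GSK126, 71 and 59 with DMSO against 101 and 88 with GSK126, and the longest was 124.2 and 154.2 kb with DMSO and 71.2 and 92.6 kb with GSK126. Of the bases covered with DMSO, 79.8% and 74.2% were still covered with GSK126, and 9.60 and 5.60 kb were covered with GSK126 alone.

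Coverage differed along the span. Between IRX4 and IRX2, H3K27me3 covered 91.3% and 93.6% with DMSO and 79.5% and 77.4% with GSK126 (mean −14.0 ± 3.10 percentage points). Between IRX2 and IRX1, it covered 78.1% and 79.7% with DMSO and 57.6% and 52.3% with GSK126 (mean −24.0 ± 4.88 percentage points). The difference was larger on the IRX1 side in both replicates, but the stretches were not tested against each other. Over all islands of the span, density was 17.4 and 23.5 tags per window with DMSO and 6.31 and 9.09 with GSK126, which are ratios of 0.363 and 0.386. At equal depth the span was covered at 86.3% and 85.3% with DMSO and at 83.4% and 73.8% with GSK126 (mean −7.20 ± 6.08 percentage points), while density was 1.39 and 1.78 times that of DMSO.

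**Figure D3:**
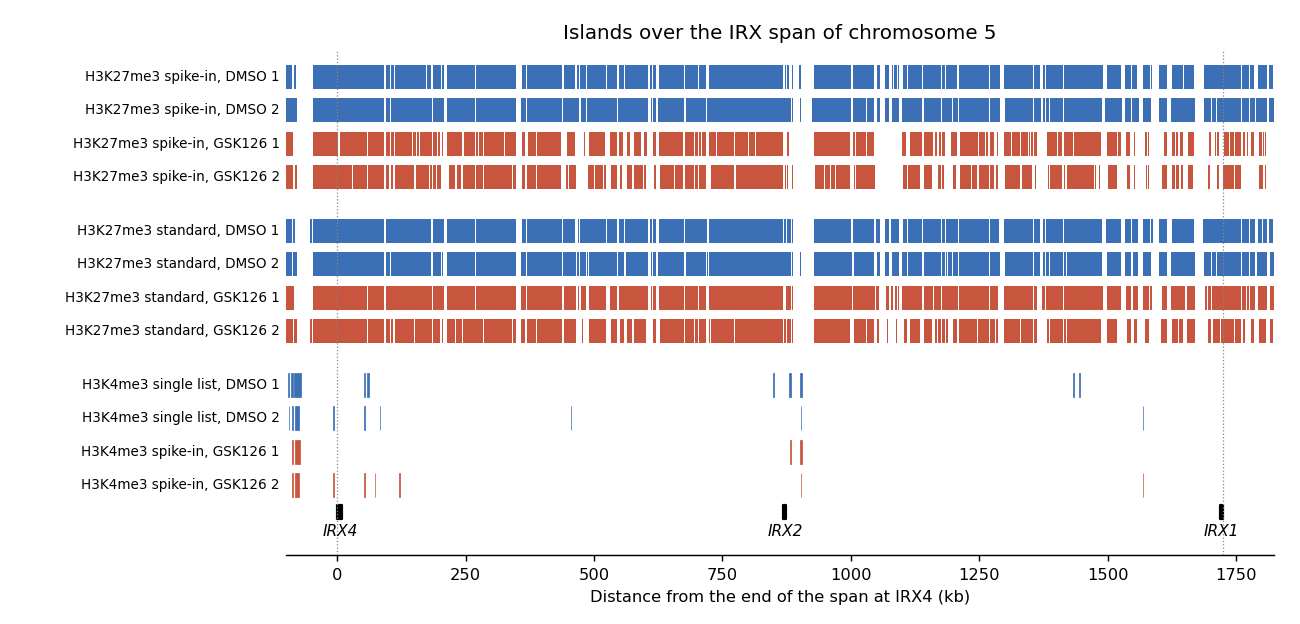
Islands over the chromosome 5 span and 100 kb on each side, by list, as distance in kb from the end of the span at IRX4. Blue bars are DMSO islands, red bars are GSK126 islands, black boxes are the genes and dotted lines are the ends of the span. H3K27me3 fills most of the span in all 8 lists, at 84.7% and 86.9% with DMSO and 68.1% and 64.8% with GSK126 in the spike-in lists, and H3K4me3 is sparse.

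H3K4me3 was nearly absent from the chromosome 5 span. It covered 0.963% and 0.348% with DMSO and 0.290% and 0.278% with GSK126 in the spike-in lists, and the 3 genes were at 0 in all 6 lists. The islands fell on 12 places of 0.4 to 3.2 kb, of which 7 were found in 1 list only. A single place, chr5:2778601-2781800 upstream of IRX2, held an island in all 6 lists. It was covered at 75% by H3K27me3 in both DMSO replicates and at 0% in both GSK126 replicates of the spike-in lists. At equal depth, it was covered at 0% and 75% with DMSO and at 0% with GSK126 in both replicates, so replicate 1 showed no difference there. In DMSO-treated cells, 78.3% and 96.7% of the H3K4me3 bases in the span also lay in H3K27me3 islands. Of all bases of the span, 84.7% and 86.9% lay in these islands, so the overlap was below this share in replicate 1. With GSK126, the overlap was 0% and 50.0%, beside 68.1% and 64.8% of all bases. It rested on 5.0 and 4.8 kb of H3K4me3 in 2 and 5 islands. The overlap depended on the normalization, since at equal depth it was 77.1% and 96.7% with DMSO and 65.4% and 40% with GSK126. The share of all bases was then 86.3% and 85.3% with DMSO and 83.4% and 73.8% with GSK126.

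The chromosome 16 cluster was marked by H3K4me3 at IRX3 and IRX5. Over 50% of the window was covered in both DMSO lists at these 2 of the 6 genes, beside 4.64% of all genes. IRX3 (chr16:54317216-54322699) was covered at 100% and 100% with DMSO and at 100% and 91.2% with GSK126 in the spike-in lists. Since coverage cannot exceed the window, the island itself tells more. It was 7.80 and 6.20 kb long with DMSO and 6.4 and 5.0 kb with GSK126, and it ranked 387 by score among 23875 islands in DMSO replicate 1 and 267 among 18420 in replicate 2. Density over the island was 75.6 and 22.2 tags per window with DMSO and 67.9 and 20.4 with GSK126, a mean ratio of 0.910 ± 0.0169. The whole lists differed by ratios of 0.836 and 0.869 in the same direction. At equal depth the IRX3 ratio was 1.09 ± 0.103, so its direction depended on the normalization. The IRX3 island was shorter with GSK126 at equal depth as well, so these ratios compare unlike stretches.

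IRX5, a gene with a role in heart and retina development, was also covered less by H3K4me3 with GSK126. Its window (chr16:54962777-54968397) was covered at 89.4% and 82.3% with DMSO and at 75.1% and 64.5% with GSK126, and the standard lists gave the same values. The mean difference was −16.0 ± 2.52 percentage points, and the groups did not overlap. The whole H3K4me3 lists also shrank with GSK126, from 85.21 and 39.96 Mb to 73.63 and 34.95 Mb in the spike-in lists. In the standard lists, 70.82 and 37.17 Mb were covered with GSK126. A lower covered length was thus not particular to IRX5. The DMSO islands at IRX5 were chr16:54960401-54967800 and chr16:54961201-54967400. With GSK126, the island of replicate 1 was chr16:54960601-54967000, and replicate 2 held chr16:54961801-54965600 and a weak island of 0.80 kb next to it. The shortening was thus at both ends. Density over the IRX5 islands was 47.5 and 12.9 tags per window with DMSO and 45.5 and 12.8 with GSK126, a mean ratio of 0.975 ± 0.0256. At equal depth this ratio was 1.15 ± 0.00634. The direction of the density ratio thus depended on the normalization, whereas that of the covered length did not. The IRX5 islands were shorter with GSK126 in both normalizations, at 6.4 against 7.4 kb and 4.6 against 6.2 kb. The ratios therefore compare unlike stretches, and reading density from scores was tested on simulated data for the H3K27me3 spike-in lists only.

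H3K4me3 coverage was lower in both replicates for 1 of the 6 genes, IRX5, beside 25.2% of all genes in the spike-in lists, and higher for 0 of the 6, beside 5.74%. For the standard lists, these counts stood beside 25.7% and 4.94%. Only the 13669 genes with H3K4me3 in both DMSO lists could be lower. Of them, 5074 were lower in the spike-in lists and 5165 in the standard lists. Of the 2 IRX genes with H3K4me3 in both DMSO lists, 0 lost more than 50% of it in both replicates (0.658% of 13669 genes, and 0.519% in the standard lists). Over the 6 windows together, the mean difference was −2.44 ± 1.03 percentage points in the spike-in lists and −2.22 ± 0.730 in the standard lists. CRNDE, a long non-coding RNA gene read in the opposite direction from IRX5, starts within the same H3K4me3 islands, so that the islands cannot be assigned to one of the pair. All 2001 bp around its start were covered in all 6 lists. CRNDE itself was covered at 5.47% and 4.54% with DMSO and at 5.23% and 3.84% with GSK126.

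H3K27me3 of the chromosome 16 span lay between the genes and was nearly absent from the spike-in lists of GSK126. It covered 12.6% and 13.6% of the span with DMSO and 0.115% and 0.248% with GSK126 (mean −12.9 ± 0.554 percentage points), and 27 and 28 islands stood against 1 and 1. Most of it lay between IRX5 and IRX6, where 26.5% and 26.6% were covered with DMSO and 0.310% and 0.671% with GSK126. Between IRX3 and IRX5, 4.66% and 6.09% were covered with DMSO and 0% with GSK126 in both replicates. The longest of these islands was 10 and 12 kb with DMSO, against 124.2 and 154.2 kb on chromosome 5. The nearest H3K27me3 island lay 51.3 and 40.9 kb from the IRX3 start, 46.0 and 28.2 kb from the IRX5 start and 80.1 and 80.3 kb from the IRX6 start with DMSO.

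Part of this H3K27me3 was still called with GSK126 in the standard lists. Coverage of the chromosome 16 span was 12.4% and 8.17% with DMSO and 7.33% and 3.44% with GSK126 (mean −4.91 ± 0.243 percentage points), in 19 and 18 islands against 15 and 8. Of the bases covered with DMSO, 45.5% and 34.3% were covered with GSK126. Between IRX3 and IRX5, islands covered 33.6 and 8.4 kb with DMSO and 32.2 and 3.6 kb with GSK126. H3K4me3 covered 1.95% and 1.13% of the span with DMSO and 1.34% and 0.917% with GSK126 in the spike-in lists. No base of the span lay in islands of both marks in the spike-in lists of either treatment.

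**Figure D4:**
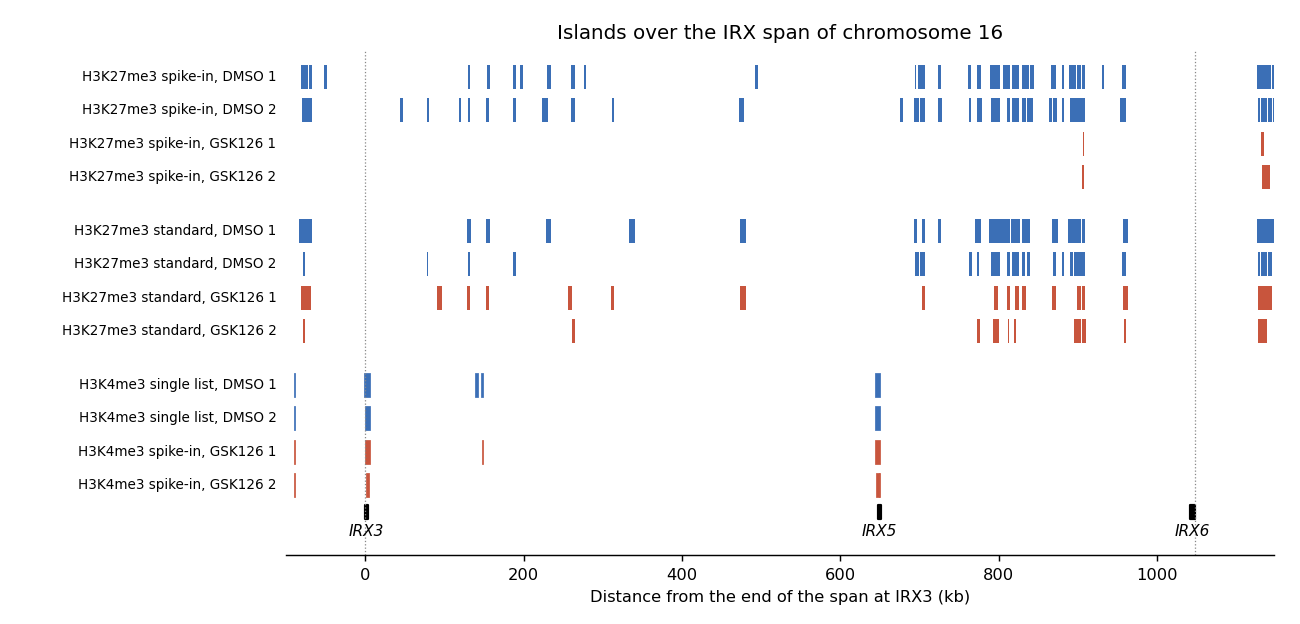
Islands over the chromosome 16 span and 100 kb on each side, by list, as distance in kb from the end of the span at IRX3. Colors and lines are as in the map of chromosome 5. The H3K27me3 islands lie between the genes and number 27 and 28 within the span with DMSO against 1 and 1 with GSK126 in the spike-in lists, and H3K4me3 islands lie at IRX3 and IRX5 in all lists shown.

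The first protein-coding gene beyond each end of each span was also measured. Before the chromosome 5 span, at 61.4 kb, NDUFS6, which encodes a subunit of respiratory complex I, held no H3K27me3 and was covered by H3K4me3 at 37.7% and 19.7% with DMSO and 34.1% and 17.3% with GSK126. After it, at 1539 kb, ADAMTS16, a secreted metalloprotease gene, was covered by H3K27me3 at 1.32% and 0% with DMSO. Before the chromosome 16 span, at 125 kb, FTO, an RNA demethylase gene, held no H3K27me3 island over its window in the 8 lists. After it, at 58.9 kb, MMP2, which encodes a matrix metalloproteinase, was covered by H3K27me3 at 22.2% and 19.2% with DMSO and at 3.70% and 8.40% with GSK126.

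Among 12 other genes of the TALE homeobox class, 2 had H3K27me3 in both DMSO spike-in lists. MEIS3 was covered at 100% in all 4 spike-in lists. PKNOX2 was covered at 68.7% and 75.9% with DMSO and at 31.1% and 35.5% with GSK126. The other 10, among them MEIS1 and MEIS2, were at 0 in the DMSO lists. H3K27me3 coverage was lower in both replicates for 1 of these 12 genes and for 19 of 39 HOX genes, beside 24.9% of all genes. It was higher for 0 genes of each list, beside 0.114% of all genes. Only genes covered in both DMSO lists could be lower, which were 2 of the 12, 26 of the 39 HOX genes and 27.7% of all genes. Among all 5573 genes so covered, 4999 were lower. The median H3K27me3 coverage with DMSO was 21.9% and 44.9% for the IRX genes and 54.0% and 62.8% for the HOX genes, and it was 0% for the other TALE genes and for all protein-coding genes. The median difference of the IRX genes was −11.8 percentage points in replicate 1 and 0 in replicate 2, beside 0 for all genes. For the IRX genes the median falls between the clusters and describes neither of them.

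Outside the spans, the genes whose coverage over the 14 lists was most like the mean of IRX4, IRX2 and IRX1 were THY1, CCL17 and SLIT3, with mean absolute differences of 2.42, 3.20 and 3.30 percentage points. SLIT3, which encodes a secreted guidance factor, was covered by H3K27me3 at 80.0% and 86.1% with DMSO and at 37.4% and 48.3% with GSK126. The chromosome 5 mean averages unlike genes, since with GSK126 IRX4 was at 61.1% and 100% and IRX1 at 13.9% and 0.726% in the spike-in lists. With GSK126, THY1, CCL17 and SLIT3 thus resemble the mean and neither IRX4 nor IRX1. The genes most like the mean of IRX3, IRX5 and IRX6 were PPP1R27, ZNF511 and NABP2, with differences of 0.892, 1.45 and 1.56 percentage points. The chromosome 16 mean averages a gene that held no island with 2 that were nearly covered, so that these genes resemble the mean and none of its members.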

How the data were processed

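Single-end tags of 50 nt were aligned by the authors with BWA against hg19, and the submitters' processing notes also name SAMtools 0.1.18. Only tags with a unique alignment, at a mapping quality over 25, entered the lists, each counted a single time where duplicates occurred. Human tags were then removed at random within each replicate, and islands were called per library with SICER against a random background (E-value 1, 200-bp windows, and a gap of 600 bp in H3K27me3 or 200 bp in H3K4me3 libraries). The deposited lists give each island with a score, for which SICER adds up −ln(Poisson probability) of the tag number in each enriched window. The lists hold no tag counts, so no interval for counting error was computed.

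Covered length was computed with Python 3.11.15 and NumPy 2.4.6 over genes of GENCODE v44 mapped to GRCh37. No island of the 14 lists ran past a chromosome end of this build. GSK126 and DMSO were compared within a replicate, since tags had been removed within replicates. The background density of each list was fitted with SciPy 1.17.1 from islands that were 1 or 2 windows long, and the mean score per window of an island was inverted to tags per window. In such a mean, windows in the gaps of an island add no score. The conversion was tested on simulated data for the H3K27me3 spike-in lists. It gave densities above the true ones, and it recovered GSK126 to DMSO ratios more closely over the windows inside islands than over all windows of a region. Promoter sequences were read from the GRCh37 genome. Plots were drawn with Matplotlib 3.10.9.

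The members and all lists were chosen with earlier results of these data known. The genes named were the 6 IRX genes, the first protein-coding gene beyond each end of each span, CRNDE, the 2 of 12 other TALE homeobox genes highest in H3K27me3 with DMSO (the lowest were tied at 0) and the 3 genes most like the mean of each cluster over the 14 lists. HOX genes entered as counts and medians. Some genes and sequences that were examined are not reported here. Alternatives were a stricter island score, a minimum island length, other gene windows, wider spans, the other DMSO list, each replicate alone and unpaired libraries. Data from other cell lines were not analysed here.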

Additional observations from a re-analysis of the deposited data

How the results depend on the processing

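The difference in H3K27me3 coverage over the 6 IRX genes, −25.1 percentage points in the spike-in lists, stayed negative under each alternative tried but moved by more than the SD between replicates (1.21) under several. It was −26.3 with islands of at least 2 times the lowest score of their list, −26.8 with islands of at least 2000 bp, −29.8 over gene bodies alone, −19.3 with 5 kb upstream and −28.1 against the DMSO lists of the standard normalization. The H3K4me3 difference of −2.22 percentage points in the standard lists was −3.08 with the stricter score. The pairing rests on the removal of tags, which was done within a replicate, and leaving out the pairing kept the difference at −25.1 percentage points with an SD of 10.3 in place of 1.21. The other main differences in covered length kept their direction under each alternative tried, the replicates taken singly included. The ratio of H3K27me3 density over both spans, 0.393 ± 0.0178 in the spike-in lists, was 0.394 with islands of at least 2000 bp. This ratio describes the chromosome 5 span, since the chromosome 16 span held only 1.2 and 2.6 kb of GSK126 islands. The chromosome 16 ratios alone were 0.677 and 0.381. The count of IRX genes with both marks at the start was 0 under each window and score tried. Depth limits what could be seen, since a region below the threshold of a thinned list gives no island, and with 2 pairs the exact sign-flip permutation test cannot go below p = 0.5.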
